A study of Mus musculus with 11 samples.

Results

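The 10 genes described here encode transcription factors known from hair follicle stem cells: Sox9, Lhx2, Tcf7l1, Tcf7l2, Nfatc1, Tbx1, Foxc1, Nfib, Runx1 and Foxp1. They were taken by name and matched by Ensembl identifier, and all 10 were among the 55536 Ensembl genes counted. The study displayed 8 of them for these same samples (the exceptions are Tcf7l1 and Tcf7l2). All 10 were also chosen with earlier results of these data known, so that their common direction is not independent evidence.

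RNA was sequenced from sorted epidermal cells of the back skin (EBS) of male CD4Cre/tdT mice, in which a Cd4 promoter transgene drives Cre and Cre switches on the tdTomato reporter (tdT) for good in a cell and its progeny. All mice carried both transgenes, also those from which the tdTneg cells were sorted, and tdT marks cells that have, or whose ancestors had, active Cre, T cells included. The 4 groups were tdT+ CD49f+CD34+ (n = 3), tdTneg CD49f+CD34+ (n = 3), tdT+ CD49f+CD34+SCA-1+ (n = 3) and tdTneg CD49f+CD34+SCA-1+ (n = 2). CD49f is an integrin of basal keratinocytes, CD34 marks the bulge of the hair follicle, and SCA-1 marks the infundibulum and the basal layer of the interfollicular epidermis. The first 2 groups were sorted as SCA-1 negative according to the methods of the study, each replicate pooled material from 2 mice, and the mice were 29 weeks old in replicate 1 and 32 weeks old in replicates 2 and 3.

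In the resting hair follicle the bulge holds slow-cycling stem cells. Sox9 and Lhx2 are known to keep the identity of these cells, Tcf7l1 (also called Tcf3) and Tcf7l2 (Tcf4) are the DNA-binding partners of beta-catenin in Wnt signaling and repress its targets when beta-catenin is absent, and Nfatc1 and Foxc1 are known for holding the cells in quiescence. Tbx1 is known for maintaining the stem cell pool, Nfib for restraining the melanocyte stem cells next to it, Runx1 for the entry into the growth phase, and Foxp1 for quiescence. Interfollicular and infundibular keratinocytes carry less of this programme and are renewed by other stem cells.

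Total counts per library ran from 17409131 to 46542177, and the tdTneg CD49f+CD34+ libraries (39364902 to 46542177) were deeper than the tdT+ CD49f+CD34+ libraries (18042009 to 24764941). A row outside the Ensembl genes, which the tables do not describe, read 133 to 307 counts scaled to library size (CPM) in 5 tdT+ libraries and 2.54 to 4.89 CPM in the 5 tdTneg libraries. The library labelled as tdT+ CD49f+CD34+ replicate 2 read 2.05 CPM in that row (37 counts, 95% Wilson interval 1.49 to 2.83, counting error only), so that in this row it read like the tdTneg libraries, against its label. In T cell markers (111 CPM summed) it read with the other tdT+ CD49f+CD34+ libraries (86.4 and 86.5 CPM) and above the tdTneg ones (26.8 to 38.4 CPM), and in bulge markers (7516 CPM) it lay between those libraries (7273 and 10724 CPM) and below the tdTneg ones (11219 to 13944 CPM). The counts of factors called, and the other counts that changed, are given with and without it. The summed level of 5 bulge markers (Cd34, Krt15, Lgr5, Gli1 and Krt24) was 7273 to 13944 CPM in the 6 CD49f+CD34+ libraries and 3105 to 5080 CPM in the 5 CD49f+CD34+SCA-1+ libraries, and all 5 were detected in every group. The summed level of 8 endothelial markers was 3808 to 4005 CPM in the tdTneg CD49f+CD34+SCA-1+ libraries, 10.4 to 133 CPM in the others apart from the library labelled as tdT+ CD49f+CD34+ replicate 2, and 853 CPM in that library. The summed level of 7 T cell markers was 500 to 1163 CPM in tdT+ CD49f+CD34+SCA-1+, 182 to 192 CPM in tdTneg CD49f+CD34+SCA-1+ and 26.8 to 111 CPM in the CD49f+CD34+ libraries. In such sorted pools, fewer cells of a type and less RNA per cell cannot be told apart.

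The first comparison asked how the stem cell factors differ between bulge cells and the cells that carry SCA-1 as well. All 10 factors were lower in CD49f+CD34+SCA-1+ than in CD49f+CD34+ libraries on the mean over tdT+ and tdTneg (as 55.9% of all genes at any p), and 8 of 10 fell (adjusted p under 0.05 and a log2 fold change beyond -1, edgeR quasi-likelihood test, Benjamini-Hochberg adjustment over 20307 genes), against 6.79% of all genes tested. Their median log2 fold change was -1.20, against -0.09 over all genes. Lhx2 had the largest difference, 7.44-fold, followed by Tbx1 with 6.58-fold, Tcf7l1 with 4.09-fold and Sox9 with 3.23-fold. Runx1 and Foxp1 passed the adjusted p but not the fold, so that all 10 were lower at that p, against 10.4% of all genes. Leaving out the library labelled as tdT+ CD49f+CD34+ replicate 2 gave a count of 9 of 10, with Runx1 added at a log2 fold change of -1.08 (adjusted p = 0.00943). A fit with the replicate as a block called 6, since Nfatc1 (-0.93, adjusted p = 0.0299) and Foxc1 (-0.95, adjusted p = 0.00814) no longer passed the fold, and 2262 of all genes in either direction, against 2347 without the block. Suprabasal markers (Krt1, Krt10, Krtdap) moved the other way, with 207 to 3488 CPM summed in CD49f+CD34+ and 2715 to 9287 CPM in CD49f+CD34+SCA-1+ libraries, and the part of these and of the T cell and endothelial markers in the fall of the factors was not tested.

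**Figure D1:**
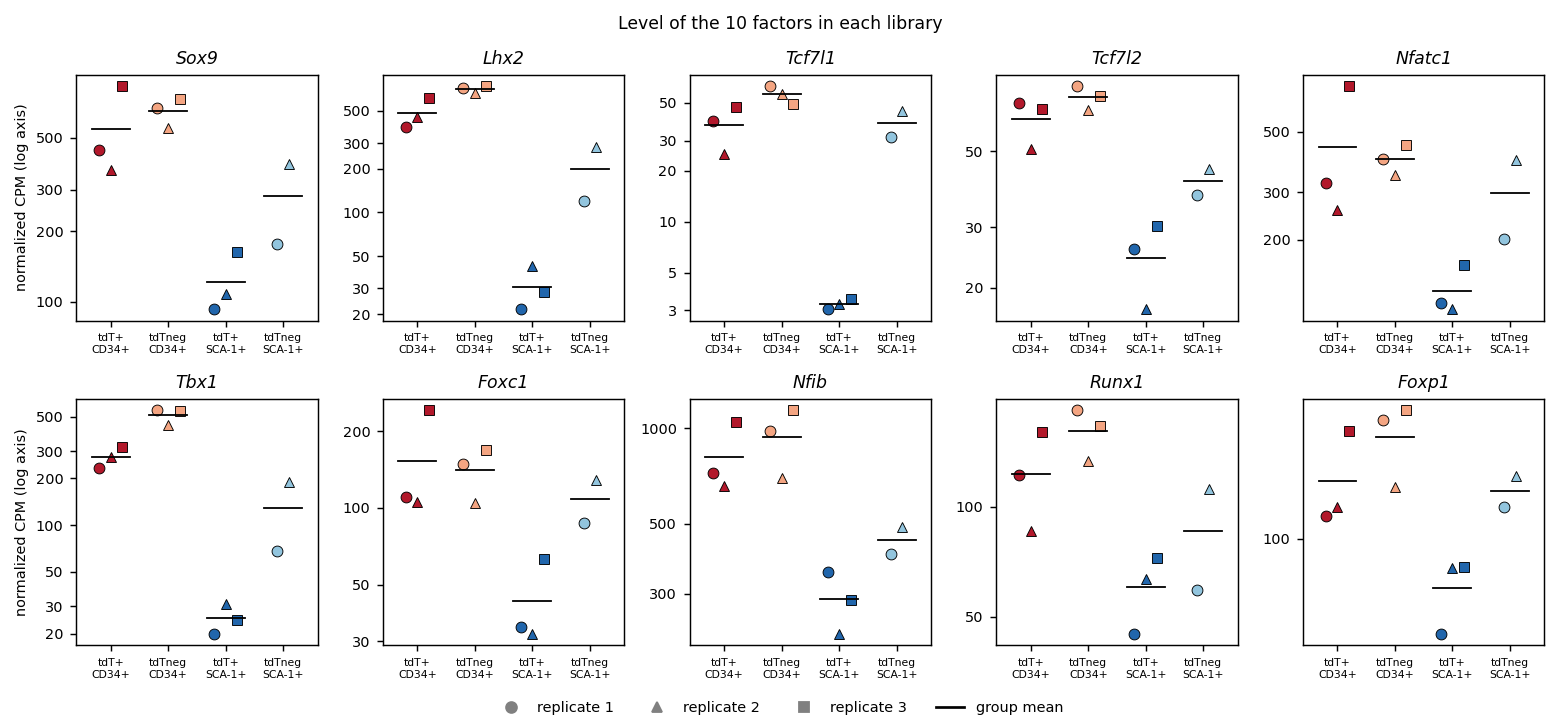
Level of each of the 10 factors (normalized CPM, log axis, with its own range in each panel) in every library of the 4 groups. Each symbol is 1 library, its shape gives the replicate and the line is the group mean. CD34+ stands for CD49f+CD34+ and SCA-1+ for CD49f+CD34+SCA-1+. All 10 factors are lowest on average in tdT+ CD49f+CD34+SCA-1+, and Tcf7l1 reads 3.04 to 3.51 CPM there.

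Lhx2 encodes a LIM homeodomain factor of the bulge (ENSMUSG00000000247, chr2:38339281-38369733, plus strand, GRCm38). It read 387, 452 and 612 normalized CPM in tdT+ CD49f+CD34+, 715, 662 and 743 in tdTneg CD49f+CD34+, 21.5, 42.7 and 28.5 in tdT+ CD49f+CD34+SCA-1+, and 120 and 280 in tdTneg CD49f+CD34+SCA-1+ libraries (in replicate order, here and for the other factors). The 4 groups did not overlap and each tdTneg group stood above the tdT+ group of its population. The log2 fold change of CD49f+CD34+SCA-1+ against CD49f+CD34+ was -2.90 (SE 0.28, adjusted p = 0.00022, edgeR).

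Tbx1, a T-box factor (ENSMUSG00000009097, chr16:18580979-18590671, minus strand), had nearly the same profile. It read 232, 275 and 318 CPM in tdT+ CD49f+CD34+, 548, 439 and 541 in tdTneg CD49f+CD34+, 19.8, 31.1 and 24.5 in tdT+ CD49f+CD34+SCA-1+, and 68 and 190 in tdTneg CD49f+CD34+SCA-1+ libraries. Its 4 groups did not overlap either and had the same order as those of Lhx2. Between the populations its log2 fold change was -2.72 (SE 0.27, adjusted p = 0.000282, edgeR).

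Sox9 encodes an HMG-box factor needed to form and keep the bulge (ENSMUSG00000000567, chr11:112782224-112787760, plus strand). It read 442, 364 and 833 CPM in tdT+ CD49f+CD34+, 668, 551 and 730 in tdTneg CD49f+CD34+, 92.6, 108 and 163 in tdT+ CD49f+CD34+SCA-1+, and 176 and 386 in tdTneg CD49f+CD34+SCA-1+ libraries. The populations overlapped through tdTneg CD49f+CD34+SCA-1+ replicate 2, which lay above the lowest CD49f+CD34+ library, whereas tdT+ CD49f+CD34+SCA-1+ lay below all other groups. Between the populations its log2 fold change was -1.69 (SE 0.29, adjusted p = 0.00359, edgeR).

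Tcf7l1 is the repressor-type TCF of the bulge (ENSMUSG00000055799, chr6:72626378-72789254, minus strand). It differed from the other factors in that tdTneg CD49f+CD34+SCA-1+ (mean 38.2 CPM) stood level with tdT+ CD49f+CD34+ (37.2 CPM). The tdT+ CD49f+CD34+SCA-1+ group stood far below the rest, as for Lhx2 and Tbx1. It read 39.1, 25 and 47.4 CPM in tdT+ CD49f+CD34+, 63.2, 56.5 and 49.5 in tdTneg CD49f+CD34+, 3.04, 3.29 and 3.51 in tdT+ CD49f+CD34+SCA-1+, and 31.5 and 44.8 in tdTneg CD49f+CD34+SCA-1+ libraries. The lowest group rested on 58 to 114 counts per library, the tdTneg CD49f+CD34+SCA-1+ libraries on 996 and 1070 counts, and the latter overlapped with tdT+ CD49f+CD34+. Between the populations its log2 fold change was -2.03 (SE 0.19, adjusted p = 0.000206, edgeR), and 4.56% of the exon length of Tcf7l1 is shared with the antisense gene Gm15401, whose reads cannot be told apart where counting ignored the strand.

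Its relative Tcf7l2 (ENSMUSG00000024985, chr19:55741820-55933654, plus strand) had a smaller and more even difference. It read 69.2, 50.6 and 66.2 CPM in tdT+ CD49f+CD34+, 77.6, 65.8 and 72.6 in tdTneg CD49f+CD34+, 26, 17.3 and 30.2 in tdT+ CD49f+CD34+SCA-1+, and 37.3 and 44.4 in tdTneg CD49f+CD34+SCA-1+ libraries. All 6 CD49f+CD34+ libraries lay above all 5 CD49f+CD34+SCA-1+ libraries, and the tdT+ and tdTneg CD49f+CD34+ groups overlapped. Between the populations its log2 fold change was -1.08 (SE 0.16, adjusted p = 0.00161, edgeR), and it was -0.96 (adjusted p = 0.00164) without tdT+ CD49f+CD34+SCA-1+ replicate 2, short of the fold threshold.

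Nfatc1, a calcineurin-dependent factor that keeps bulge cells quiescent (ENSMUSG00000033016, chr18:80606205-80713071, minus strand), varied widely among the tdT+ CD49f+CD34+ libraries. It read 323, 257 and 739 CPM in tdT+ CD49f+CD34+, 396, 347 and 446 in tdTneg CD49f+CD34+, 117, 111 and 162 in tdT+ CD49f+CD34+SCA-1+, and 201 and 393 in tdTneg CD49f+CD34+SCA-1+ libraries. The tdT+ CD49f+CD34+SCA-1+ group lay below all others, and the other 3 groups overlapped with their neighbours in level. Between the populations its log2 fold change was -1.09 (SE 0.30, adjusted p = 0.0302, edgeR).

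Foxc1, a forkhead factor of activated and self-renewing bulge cells that restores quiescence (ENSMUSG00000050295, chr13:31806633-31812476, plus strand), behaved in the same way. It read 110, 105 and 241 CPM in tdT+ CD49f+CD34+, 149, 104 and 169 in tdTneg CD49f+CD34+, 34, 31.9 and 62.9 in tdT+ CD49f+CD34+SCA-1+, and 87 and 129 in tdTneg CD49f+CD34+SCA-1+ libraries. Again tdT+ CD49f+CD34+SCA-1+ alone lay below the rest, and the populations differed by a log2 fold change of -1.11 (SE 0.29, adjusted p = 0.0253, edgeR).

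The calls for Nfatc1 and Foxc1 depended on single libraries, and that for Nfatc1 also on the method. With limma voom and library weights Nfatc1 read -0.90 (adjusted p = 0.0118), short of the fold threshold. Nfatc1 was not called without tdT+ CD49f+CD34+ replicate 3 (-0.79, adjusted p = 0.0275), tdTneg CD49f+CD34+ replicate 3 (-1.04, 0.0575), tdT+ CD49f+CD34+SCA-1+ replicate 1 (-1.05, 0.0642) or replicate 2 (-1.02, 0.063), or tdTneg CD49f+CD34+SCA-1+ replicate 1 (-0.89, 0.151). Foxc1 was not called without the same libraries (-0.86 with 0.0308, -1.03 with 0.0515, -1.03 with 0.0569, -1.0 with 0.0553 and -0.98 with 0.134, in that order), nor without tdTneg CD49f+CD34+SCA-1+ replicate 2 (-1.23, adjusted p = 0.0626). Both remained lower in each of these fits.

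Nfib, a nuclear factor I protein (ENSMUSG00000008575, chr4:82290173-82705750, minus strand), read 724, 659 and 1045 CPM in tdT+ CD49f+CD34+, 978, 696 and 1137 in tdTneg CD49f+CD34+, 353, 224 and 288 in tdT+ CD49f+CD34+SCA-1+, and 401 and 488 in tdTneg CD49f+CD34+SCA-1+ libraries. The 6 CD49f+CD34+ libraries lay above the 5 CD49f+CD34+SCA-1+ libraries, with a log2 fold change of -1.28 (SE 0.20, adjusted p = 0.00191, edgeR). Nfib was thus the fourth factor, with Lhx2, Tbx1 and Tcf7l2, whose populations did not overlap, and 5.67% of all genes were lower in the same way. Without the library labelled as tdT+ CD49f+CD34+ replicate 2, Sox9 and Runx1 did not overlap either, 6 of 10 in all, as 7.43% of all genes.

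Runx1, the Runt factor of the follicle (ENSMUSG00000022952, chr16:92601466-92826149, minus strand), read 122, 85.6 and 161 CPM in tdT+ CD49f+CD34+, 184, 134 and 167 in tdTneg CD49f+CD34+, 44.7, 63.3 and 72.5 in tdT+ CD49f+CD34+SCA-1+, and 59.2 and 112 in tdTneg CD49f+CD34+SCA-1+ libraries. Each group overlapped with the next in level, and the populations differed by a log2 fold change of -0.98 (SE 0.23, adjusted p = 0.0151, edgeR), just outside the fold threshold. It was called when tdT+ CD49f+CD34+ replicate 2 (-1.08), tdTneg CD49f+CD34+ replicate 2 (-1.03), tdT+ CD49f+CD34+SCA-1+ replicate 3 (-1.05) or tdTneg CD49f+CD34+SCA-1+ replicate 2 (-1.21) was left out. Foxp1, a forkhead factor (ENSMUSG00000030067, chr6:98925338-99522721, minus strand), read 112, 117 and 170 CPM in tdT+ CD49f+CD34+, 179, 129 and 188 in tdTneg CD49f+CD34+, 62.5, 86.5 and 86.9 in tdT+ CD49f+CD34+SCA-1+, and 117 and 136 in tdTneg CD49f+CD34+SCA-1+ libraries. It had the smallest difference of the 10 between the populations, -0.57 (SE 0.16, adjusted p = 0.0348, edgeR), and the tdTneg CD49f+CD34+SCA-1+ libraries lay within the range of the CD49f+CD34+ libraries. Foxp1 shares 2.18% of its exon length with Gm20696 on the same strand, and Runx1 shares 0.881% with the antisense gene Gm26626.

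Because these factors fell together, the sequence before the start site is shown for the called factors that have an entry in the RefSeq promoter table (GRCm38.p6) used here: Lhx2 (chr2:38339031-38339280, plus strand), Tcf7l1 (chr6:72789255-72789295, minus strand), Tcf7l2 (chr19:55741560-55741809, plus strand), Tbx1 (chr16:18590672-18590921, minus strand) and Foxc1 (chr13:31806396-31806632, plus strand). Each is written 5′ to 3′ in the direction of the gene and stops before the first annotated exon base, so that 41 bases remain for Tcf7l1. Capitals mark matches, on either strand, to short motifs of the factors' own families.
Lhx2: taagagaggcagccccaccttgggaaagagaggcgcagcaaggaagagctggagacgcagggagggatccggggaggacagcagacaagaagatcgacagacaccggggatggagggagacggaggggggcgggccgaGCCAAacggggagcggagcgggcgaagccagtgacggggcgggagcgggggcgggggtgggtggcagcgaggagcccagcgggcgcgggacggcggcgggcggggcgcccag
Tcf7l1: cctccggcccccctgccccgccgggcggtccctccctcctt
Tcf7l2: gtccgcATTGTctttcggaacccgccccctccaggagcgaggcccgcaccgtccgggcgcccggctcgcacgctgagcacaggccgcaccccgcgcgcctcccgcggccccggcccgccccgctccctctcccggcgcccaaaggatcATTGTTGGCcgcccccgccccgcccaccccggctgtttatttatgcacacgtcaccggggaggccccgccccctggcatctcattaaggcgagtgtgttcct
Tbx1: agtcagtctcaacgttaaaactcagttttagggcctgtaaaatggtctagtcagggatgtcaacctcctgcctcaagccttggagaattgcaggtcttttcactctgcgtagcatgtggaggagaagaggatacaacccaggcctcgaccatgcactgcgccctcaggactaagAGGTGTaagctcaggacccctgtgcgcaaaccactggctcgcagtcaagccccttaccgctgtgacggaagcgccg
Foxc1: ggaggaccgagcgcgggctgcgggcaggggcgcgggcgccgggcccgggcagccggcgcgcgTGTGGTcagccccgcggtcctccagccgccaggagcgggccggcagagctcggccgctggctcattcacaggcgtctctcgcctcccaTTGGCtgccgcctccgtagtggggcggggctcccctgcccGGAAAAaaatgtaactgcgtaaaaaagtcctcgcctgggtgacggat
The letters searched were TAATTA for LHX, CTTTGAT for TCF/LEF, ACAAT for SOX, TGTTTAC for FOX, TGTGGT for RUNX, TTGGC for the NFI half-site, GGAAAA for NFAT and AGGTGT for T-box factors. The Lhx2 stretch held 1 NFI half-site, which 41.5% of 32851 promoter windows of 250 bases also hold. The Tcf7l2 stretch held 2 SOX matches (in 27.7% of all windows) and 1 NFI half-site, the second SOX match overlapping it. The Tbx1 stretch held 1 T-box match (in 11.8% of windows), and the Foxc1 stretch held 1 RUNX match (14%), 1 NFI half-site and 1 NFAT match (20.4%). The LHX, TCF/LEF and FOX letters, which 4.84%, 3.21% and 3.17% of all windows hold, were in none of the 5 printed stretches, and such matches describe the letters only.

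The same comparison was then made within each reporter class, where the estimates of all 10 factors were further from 0 in tdT+ than in tdTneg cells. The test of that difference is given with the interaction term. Within tdT+, 9 of 10 factors fell in CD49f+CD34+SCA-1+ cells, against 5.54% of all genes, and in all 10 the libraries of the 2 populations did not overlap, as in 15% of all genes lower in the same way. The median log2 fold change of the factors was -1.79, against -0.07 over all genes. Lhx2 was 15.6-fold lower (-3.97, SE 0.37, adjusted p = 0.000326, edgeR), Tcf7l1 11.3-fold (-3.50, SE 0.26, adjusted p = 0.000169) and Tbx1 11-fold (-3.45, SE 0.36, adjusted p = 0.000503). Sox9 was 4.51-fold lower (-2.17), Foxc1 3.55-fold (-1.83), Nfatc1 3.39-fold (-1.76), Nfib 2.81-fold (-1.49), Tcf7l2 2.53-fold (-1.34) and Runx1 2.04-fold (-1.03, adjusted p = 0.0492). Foxp1 passed the adjusted p but not the fold (-0.76, adjusted p = 0.0456), and 6.64% of all genes were lower at that adjusted p. The library labelled as tdT+ CD49f+CD34+ replicate 2 did not carry this count, since the same number, 9, was called without it and all 10 again did not overlap (19.2% of all genes), with Lhx2 at -4.02, Tcf7l1 at -3.72 and Tbx1 at -3.45. Foxp1 read -0.84 in that fit (adjusted p = 0.058).

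Of these calls, Runx1 was the least stable. It was not called with the replicate block (-1.03, adjusted p = 0.0522), limma voom (-0.89, 0.0899) or only the groups compared (-1.06, 0.053). Nor was it called without tdT+ CD49f+CD34+ replicate 1 (-1.04, 0.105) or 3 (-0.79, 0.115), tdTneg CD49f+CD34+ replicate 1 (-1.03, 0.0625) or 3 (-1.03, 0.0659), or tdT+ CD49f+CD34+SCA-1+ replicate 1 (-0.86, 0.142), 2 (-1.09, 0.0949) or 3 (-1.19, 0.072). Nfatc1 and Foxc1 were not called without tdT+ CD49f+CD34+SCA-1+ replicate 1 (-1.69 with 0.0645 and -1.68 with 0.0545) or replicate 2 (-1.68 with 0.0605 and -1.68 with 0.0507), and Nfatc1 moved to -1.16 (adjusted p = 0.0325) without tdT+ CD49f+CD34+ replicate 3. Over the 3 same-numbered pairs of libraries, each of the 10 factors was lower in the CD49f+CD34+SCA-1+ library every time, as 22% of all genes. Suprabasal (6826 to 9287 against 1079 to 3488 CPM), basal keratinocyte (23877 to 31197 against 11689 to 14514 CPM) and T cell markers (500 to 1163 against 86.4 to 111 CPM) were higher within tdT+ in the population with SCA-1 and melanocyte markers lower (5.72 to 15.7 against 25.4 to 52.9 CPM), and their part was not tested.

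Within tdTneg, 2 of 10 factors fell, Lhx2 (3.54-fold, -1.82, SE 0.39, adjusted p = 0.0279, edgeR) and Tbx1 (3.96-fold, -1.98, SE 0.39, adjusted p = 0.0199), against 1.45% of all genes called lower. All 10 had a negative log2 fold change, as 58.3% of all genes, with a median of -0.87 against -0.13 over all genes, and the libraries did not overlap in 7 (26.4% of all genes were lower in this way, with 3 libraries against 2). Sox9 read -1.21 (adjusted p = 0.143), Nfib -1.08 (0.0627), Runx1 -0.92 (0.154) and Tcf7l2 -0.82 (0.0775). Tcf7l1 read -0.56 (adjusted p = 0.26, 95% interval -1.16 to 0.03), and Nfatc1 (-0.42, -1.38 to 0.55), Foxc1 (-0.38, -1.32 to 0.56) and Foxp1 (-0.39, -0.92 to 0.15) had intervals that include 0. DESeq2 called Sox9 as well (-1.12, adjusted p = 0.0316), in a fit with 2051 calls over all genes in place of 963. The 2 libraries of tdTneg CD49f+CD34+SCA-1+ differed, and without its replicate 1 Sox9 moved to -0.76, Runx1 to -0.54, Tcf7l1 to -0.34, Foxc1 to -0.14 and Nfatc1 to -0.03, while without its replicate 2 Sox9 moved to -1.83, Runx1 to -1.40, Nfatc1 to -0.93 and Foxc1 to -0.64. Foxc1 also moved to -0.23 without tdTneg CD49f+CD34+ replicate 3. Neither Lhx2 nor Tbx1 was called without tdTneg CD49f+CD34+ replicate 1 (-1.81 with 0.0671 and -1.93 with 0.0508), tdTneg CD49f+CD34+ replicate 3 (-1.79 with 0.0861 and -1.94 with 0.0677) or tdTneg CD49f+CD34+SCA-1+ replicate 1 (-1.35 with 0.209 and -1.44 with 0.094), and without tdTneg CD49f+CD34+SCA-1+ replicate 2 they moved to -2.51 and -2.86. Nfib was called without tdT+ CD49f+CD34+ replicate 3 (-1.08, adjusted p = 0.0391) or tdTneg CD49f+CD34+ replicate 2 (-1.25, adjusted p = 0.0398). In the 2 same-numbered pairs 7 factors were lower both times, as 38.5% of all genes, whereas Foxc1 (0.30), Nfatc1 (0.18) and Foxp1 (0.07) were higher in 1 of 2. Endothelial markers (3808 to 4005 against 33.8 to 119 CPM), suprabasal markers (2715 to 6262 against 207 to 1247 CPM), T cell markers (182 to 192 against 26.8 to 38.4 CPM) and Langerhans cell markers (673 to 765 against 356 to 415 CPM) were higher in the CD49f+CD34+SCA-1+ libraries. Melanocyte markers were lower (13.8 to 34.4 against 57 to 63 CPM), and none of these sums overlapped. Epcam, most of the Langerhans cell sum in tdTneg CD49f+CD34+, went the other way (246 to 304 against 336 to 377 CPM). Cd207 (9.34 to 21.4 against 0.927 to 1.49 CPM), H2-Ab1 (122 to 126 against 4.03 to 19.3 CPM) and Cd74 (284 to 327 against 5.61 to 26.2 CPM) were higher by far more than the sum. The part of all these markers in the result was not tested.

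**Figure D2:**
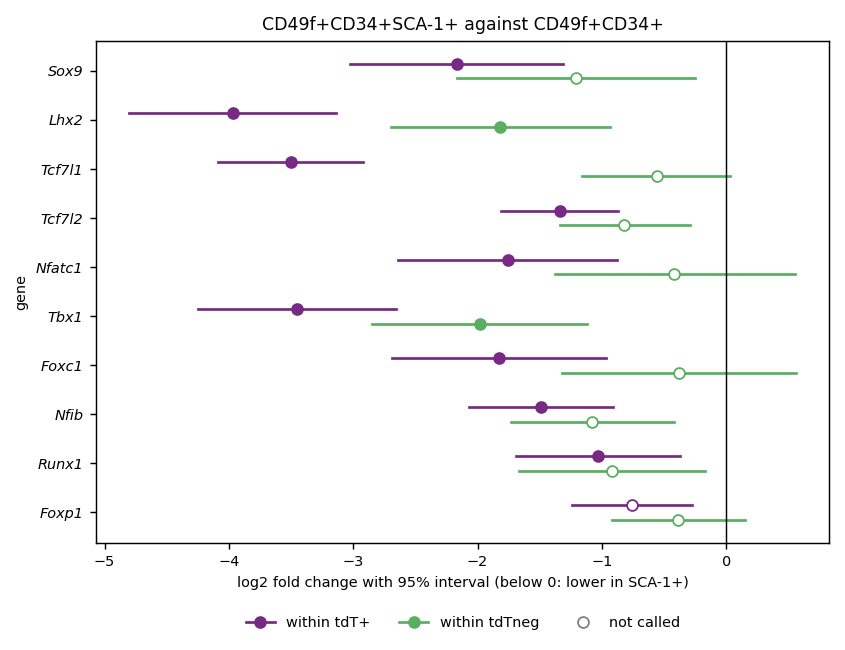
Log2 fold change of each factor, CD49f+CD34+SCA-1+ against CD49f+CD34+, within tdT+ (upper symbol of each gene) and within tdTneg (lower symbol), with 95% intervals from the edgeR fit of all 11 libraries. Filled symbols are called (adjusted p under 0.05 and beyond 1 on the log2 scale). Within tdT+ 9 of 10 are called and within tdTneg only Lhx2 and Tbx1.

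The next comparison asked whether cells with a history of Cre from the Cd4 promoter differ in these factors from their unlabelled counterparts. In CD49f+CD34+ cells no factor was called of 10, against 0.00985% of all genes called in either direction (2 genes) and 0% called lower, and DESeq2 called none of the 10 either. At an unadjusted p under 0.05, 2 of 10 were lower, Tcf7l1 and Tbx1, against 3.86% of all genes. Tbx1 read -0.89 (SE 0.33, 95% interval -1.62 to -0.16, adjusted p = 0.502, edgeR), Tcf7l1 -0.60 (-1.13 to -0.08, adjusted p = 0.529) and Lhx2 -0.55 (-1.28 to 0.19, adjusted p = 0.695), and the libraries of these 3 did not overlap (10.9% of all genes were lower in this way). For the other 7 the estimates lay between -0.40 for Runx1 and 0.15 for Nfatc1, with intervals that include 0 and reach as low as -1.08 for Sox9. Nfatc1 and Foxc1 had the only positive values, 0.15 and 0.12, and both turned negative (-0.45 and -0.38) without tdT+ CD49f+CD34+ replicate 3. When the library labelled as tdT+ CD49f+CD34+ replicate 2 was left out, Tbx1 read -0.89, Tcf7l1 -0.38 and Lhx2 -0.50, and still none was called. In that fit Tbx1 alone had an unadjusted p under 0.05 (1 of 10, against 3.94% of all genes), and the libraries of the same 3 factors did not overlap (17.4% of all genes). Over the 3 same-numbered pairs, 7 of 10 factors were lower in tdT+ each time (20.1% of all genes), with Tbx1 between -1.24 and -0.67, Lhx2 between -0.89 and -0.28, Tcf7l1 between -1.17 and -0.06, Foxp1 between -0.68 and -0.14, Runx1 between -0.65 and -0.05, Nfib between -0.44 and -0.08 and Tcf7l2 between -0.38 and -0.13. Sox9, Nfatc1 and Foxc1 differed in sign between pairs. The same 7 were lower in both of the 2 pairs that remain without that library, as 34.3% of all genes. The fit with the replicate block called none. The 2 groups also differed in depth and in marker sums. Bulge markers summed to 7273 to 10724 CPM in tdT+ and 11219 to 13944 CPM in tdTneg libraries, basal keratinocyte markers to 11689 to 14514 and 16047 to 17761 CPM, melanocyte markers to 25.4 to 52.9 and 57 to 63 CPM and T cell markers to 86.4 to 111 and 26.8 to 38.4 CPM, all without overlap, and suprabasal markers to 1079 to 3488 and 207 to 1247 CPM. The part of depth and of these markers in the estimates was not tested.

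In CD49f+CD34+SCA-1+ cells all 10 factors had a negative estimate, that is, were lower in tdT+ cells, as 45.7% of all genes. Of the 10, 3 fell, against 2.06% of all genes called lower. Tcf7l1 was 11.6-fold lower in tdT+ than in tdTneg cells (-3.54, SE 0.27, adjusted p = 0.000625, edgeR), Lhx2 6.47-fold (-2.69, SE 0.37, adjusted p = 0.00573) and Tbx1 5.13-fold (-2.36, SE 0.36, adjusted p = 0.00979). The median over the 10 factors was -1.20, against 0.04 over all genes, and 9 of 10 had an unadjusted p under 0.05 (9.42% of all genes were lower at that p). The same 9, all but Runx1, had libraries that did not overlap, as 17.2% of all genes lower in tdT+, with 3 libraries against 2. Values for the factors that did not pass were -1.33 for Foxc1 (adjusted p = 0.152), -1.21 for Sox9 (0.187), -1.19 for Nfatc1 (0.212), -0.74 for Tcf7l2 (0.152), -0.68 for Foxp1 (0.199), -0.62 for Nfib (0.343) and -0.51 for Runx1 (0.546). Of these, Sox9 moved to -0.58, Nfatc1 to -0.68 and Runx1 to -0.02 without tdTneg CD49f+CD34+SCA-1+ replicate 2, and Runx1 moved to -0.90 without replicate 1 of that group and to -0.33 without tdT+ CD49f+CD34+SCA-1+ replicate 1.

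DESeq2 called 6 of 10, adding Foxc1 (-1.35, adjusted p = 0.0164), Sox9 (-1.24, 0.0269) and Nfatc1 (-1.22, 0.0373), and edgeR with genes of at least 1 count in any library called the same 6 (-1.40 with 0.0157, -1.28 with 0.0261 and -1.26 with 0.0368). Calls over all genes rose too, from 470 of 20307 to 1124 with DESeq2 and to 885 of 41302 with that filter. With the replicate block 4 factors fell, Foxc1 being added at -1.68 (adjusted p = 0.0165), with 404 calls over all genes. The call for Tbx1 rested on tdTneg CD49f+CD34+SCA-1+ replicate 2, without which it read -1.49 (adjusted p = 0.0518) and Lhx2 read -2.0 (0.0432), in a fit that takes the spread of the remaining library of its group from the other groups. The count when leaving out the library labelled as tdT+ CD49f+CD34+ replicate 2 was also 3 of 10, with 8 in place of 9 at an unadjusted p under 0.05 (9.22% of all genes). Other cell types moved with this comparison. The 8 endothelial markers summed to 50.6 to 133 CPM in tdT+ and 3808 to 4005 CPM in tdTneg CD49f+CD34+SCA-1+ libraries, with all 8 detected in both groups and 2 of 8 called lower in tdT+ (Egfl7 and Tek; 6 of 8 without the library labelled as tdT+ CD49f+CD34+ replicate 2), and the 7 T cell markers summed to 500 to 1163 and 182 to 192 CPM, with 3 of 7 called higher in tdT+ (4 without that library). Suprabasal markers (6826 to 9287 against 2715 to 6262 CPM) and basal keratinocyte markers (23877 to 31197 against 16910 to 20106 CPM) summed to more in tdT+ libraries and Langerhans cell markers to less (384 to 546 against 673 to 765 CPM), in each case without overlap. Of the 5 bulge markers 3 fell in tdT+ as well, Cd34 (-3.68, adjusted p = 0.000776), on which all groups were sorted and which endothelial cells also express, Krt24 (-3.26, adjusted p = 0.00168) and Lgr5 (-2.31, adjusted p = 0.0178). Gli1 read -1.90 (adjusted p = 0.0815) and Krt15, which makes up most of their summed level, 0.20 (adjusted p = 0.856). The part of these cells and markers in the differences of Tcf7l1, Lhx2 and Tbx1 was not tested.

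**Figure D3:**
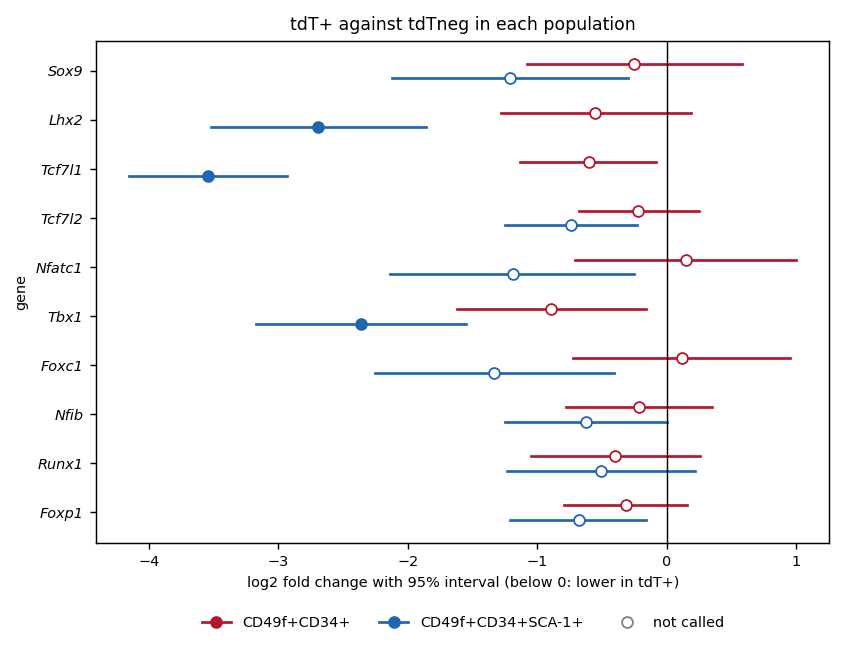
Log2 fold change of each factor, tdT+ against tdTneg, in CD49f+CD34+ (upper symbol) and CD49f+CD34+SCA-1+ cells (lower symbol), with 95% intervals from the edgeR fit of all 11 libraries. Filled symbols are called. None is called in CD49f+CD34+, and Tcf7l1, Lhx2 and Tbx1 are called in CD49f+CD34+SCA-1+, Tcf7l1 with an interval of -4.15 to -2.93.

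Whether the tdT difference itself differed between the populations was tested by the interaction term. Tcf7l1 was the only factor of 10 called (log2 difference of -2.94, SE 0.36, 95% interval -3.73 to -2.15, adjusted p = 0.00988, edgeR), against 0.379% of all genes called in this direction. Its tdT+ against tdTneg log2 fold change was -0.60 in the first population and -3.54 in the one with SCA-1. Lhx2 read -2.14 (SE 0.49, adjusted p = 0.104), Tbx1 -1.47 (0.247), Foxc1 -1.44 (0.329) and Nfatc1 -1.34 (0.381), and these 5 were below an unadjusted p of 0.05, as 7.63% of all genes in this direction. The remaining 5 lay between -0.96 for Sox9 and -0.11 for Runx1. Leaving out tdTneg CD49f+CD34+SCA-1+ replicate 2 moved Lhx2 to -1.44, Tbx1 to -0.58, Nfatc1 to -0.81, Sox9 to -0.32 and Runx1 to 0.39, and leaving out tdT+ CD49f+CD34+ replicate 3 moved Foxc1 to -0.95, Nfatc1 to -0.74 and Sox9 to -0.52. Without the library labelled as tdT+ CD49f+CD34+ replicate 2 the count was again 1 of 10, Tcf7l1 at -3.16 (adjusted p = 0.00466). Without tdTneg CD49f+CD34+SCA-1+ replicate 2 the call for Tcf7l1 was lost, though its value was close (-2.69, adjusted p = 0.068), and in that fit 1 gene in all was called. With DESeq2, Lhx2 (-2.25, adjusted p = 0.000319) and Tbx1 (-1.58, adjusted p = 0.028) were called as well, among 772 genes in all in place of 79.

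Between genes, levels can be compared only per length of exon. In tdTneg CD49f+CD34+ cells the mean normalized CPM per kilobase was highest for Lhx2 (161), Sox9 (157) and Tbx1 (145), followed by Nfib (62.7), Nfatc1 (53.1) and Foxc1 (24.1). Tcf7l1 (14.4), Runx1 (13.5), Foxp1 (12) and Tcf7l2 (8.2) were the least abundant per kilobase. In tdT+ CD49f+CD34+SCA-1+ cells the order was another: Sox9 was highest at 29.3 CPM per kilobase, before Nfib (19.3), Nfatc1 (17.4), Foxc1 (7.35), Tbx1 (7.14), Lhx2 (7.04), Foxp1 (5.72), Runx1 (5.0), Tcf7l2 (2.79) and Tcf7l1 (0.836). Lhx2 and Tbx1 thus moved from among the 3 most abundant factors to the middle of the list, and Tcf7l1 to its end.

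In some libraries most of the factors lay on the same side of the group mean, and no share over all genes was computed for this. Relative to its group mean, tdT+ CD49f+CD34+ replicate 3 was above in all 10 factors (median deviation 0.40 on the log2 scale), tdTneg CD49f+CD34+SCA-1+ replicate 2 was above in all 10 (0.37) and its partner replicate 1, by construction of a group of 2, below in all 10 (-0.37). The library labelled as tdT+ CD49f+CD34+ replicate 2 was below in 9 of 10 (-0.35). For tdTneg CD49f+CD34+ replicate 1 all 10 were above, by a median of only 0.11. In tdT+ CD49f+CD34+SCA-1+ replicate 2 the factors were split, 5 above and 5 below (-0.06). Among the 45 pairs of factors, Pearson's r of the log2 CPM over all 11 libraries had a median of 0.90 (0.81 to 0.99), which contains the differences between groups, and r within groups, computed on deviations from each group mean, had a median of 0.62. Within groups the closest pairs were Sox9 and Nfatc1 (r = 0.96), Lhx2 and Tbx1 (0.95), Sox9 and Runx1 (0.93) and Nfatc1 and Foxc1 (0.92), and the lowest value was that of Lhx2 and Tcf7l2 (-0.16). Of the 45 pairs, 8 were above 0.8 within groups. These are descriptions over 11 libraries that share depth and composition, and they were not compared with other genes.

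**Figure D4:**
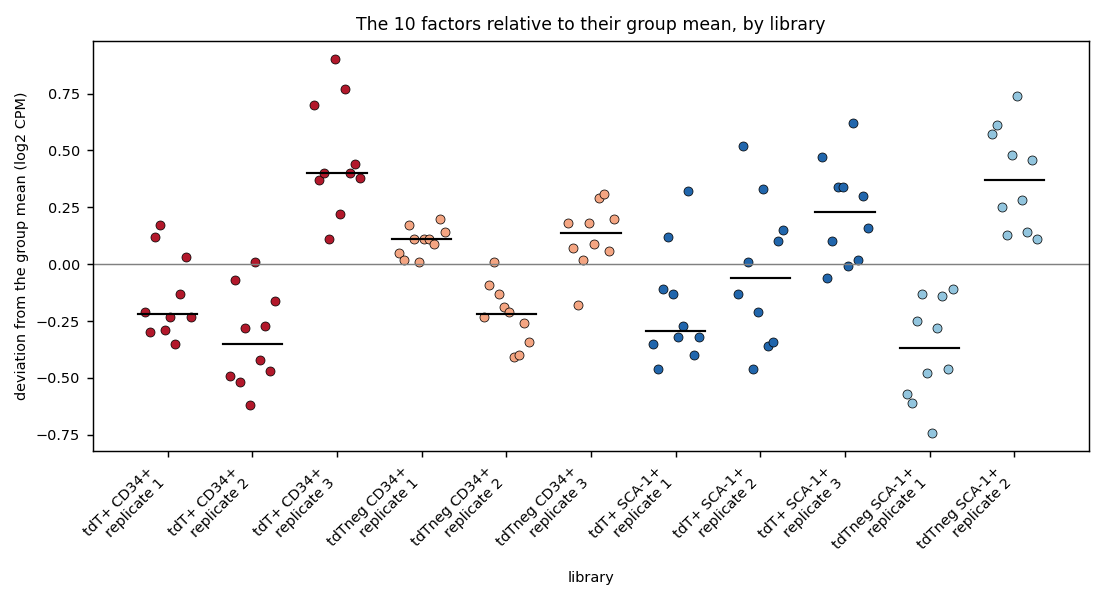
Deviation of each of the 10 factors (1 point per factor) from its mean in the same group, in log2 CPM, for each of the 11 libraries, with the median as a line and colours by group. CD34+ stands for CD49f+CD34+ and SCA-1+ for CD49f+CD34+SCA-1+. All 10 points lie above 0 in tdT+ CD49f+CD34+ replicate 3, with a median of 0.40.

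The genes most like each factor over the 11 libraries, by Pearson's r of the log2 CPM, were searched among 10099 other genes with a mean log2 CPM of at least 3. For each factor the 3 highest values of that search are given. These r contain the differences between groups, so that they do not single out specific partners. Sox9 was most like Phyhip (0.995), Fzd7, a Wnt receptor (0.988), and Ift81 (0.986). Lhx2 was most like Pdzrn3 (0.994), Shisa2 (0.992) and Dkk3 (0.992), and Dkk3 also led for Tbx1 (0.993), before Kcnk2 (0.991) and P2rx7 (0.990). Tcf7l1 had Scara3 (0.992), Kank2 (0.989) and Plekhg1 (0.987), and its relative Tcf7l2 had Samd14 (0.987), Sema6c (0.987) and Gaa (0.981). The pair of quiescence factors shared Lpar1, a receptor of lysophosphatidic acid. Nfatc1 had Lpar1 (0.982), Pttg1ip (0.974) and Efnb2 (0.974), and Foxc1 had Hspa2 (0.972), Lpar1 (0.970) and Mapk3 (0.970). Nfib had Tfap2b (0.984), Tpst1 (0.982) and Tenm2 (0.982), Runx1 had Snx18 (0.981), Vdr, the vitamin D receptor (0.975), and Irx3 (0.968), and Foxp1 had Cntln (0.984), Fam84b (0.968) and Calu (0.966).

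Relatives of the factors from the same families moved in both directions. Of 37 related SOX, LHX, TCF/LEF, NFAT, T-box, forkhead, NFI and RUNX genes, 31 passed the filter, 6 rose and 2 fell between the populations, against 4.77% and 6.79% of all genes, with a median of -0.07. Runx3, a Runt factor also known from cytotoxic T cells, rose most (2.26, SE 0.24, adjusted p = 0.000374, edgeR), from 1.29 to 6.67 CPM in CD49f+CD34+ to 8.58 to 37.3 CPM in CD49f+CD34+SCA-1+ libraries, and the 7 T cell markers all rose too, whose part was not tested. Nfatc4 fell most (-1.94, SE 0.43, adjusted p = 0.0119). Like Tcf7l1 it was lowest in tdT+ CD49f+CD34+SCA-1+ (0.361 to 2.73 CPM, against 9.40 to 18.5 CPM in the other libraries). The most abundant relatives, Nfix (-0.19, adjusted p = 0.498) and Nfat5 (-0.34, adjusted p = 0.278), did not pass.

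Of 22 cofactors of the 10 factors (beta-catenin and its partners, Groucho-type corepressors, LIM-binding proteins, Cbfb, calcineurin subunits and histone deacetylases) none rose and 1 fell, near the shares over all genes, 4.77% and 6.79%. It was the LIM-only gene Lmo1 (-1.01, SE 0.20, adjusted p = 0.00727, edgeR). Ctnnb1, which encodes beta-catenin, read -0.26 (adjusted p = 0.145), and Ldb1, the partner of LIM homeodomain factors, -0.18 (adjusted p = 0.355). Of 10 genes known as targets or effectors of these factors in the follicle, 1 rose and 4 fell, against 4.77% and 6.79% of all genes. The cell cycle inhibitor Cdkn1a, which Runx1 is known to repress, rose (1.36, SE 0.17, adjusted p = 0.000636), from 79.8 to 179 CPM in CD49f+CD34+ to 257 to 403 CPM in CD49f+CD34+SCA-1+ libraries. Those that fell were the quiescence signals Fgf18 (-2.44) and Bmp6 (-1.93), the activin subunit Inhbb (-1.09) and Lcn2 (-5.63), which ranged from 0.937 to 597 CPM in the tdT+ CD49f+CD34+ libraries alone. Cdk4, a target of Nfatc1, read -0.05 (adjusted p = 0.836).

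Of 20 factors of epidermal differentiation, 8 rose in CD49f+CD34+SCA-1+ cells, none fell and 12 did not pass, against 4.77% and 6.79% of all genes, with a median log2 fold change of 0.61. Grhl3, a factor of terminal differentiation, rose most (2.22, SE 0.27, adjusted p = 0.000663, edgeR), from 3.44 to 22.3 CPM in CD49f+CD34+ to 37.8 to 68.5 CPM in CD49f+CD34+SCA-1+ libraries. The 2 most abundant, Trp63, the master factor of stratified epithelia, and Klf4, did not pass (0.05 with adjusted p = 0.838 and -0.39 with adjusted p = 0.189). Between tdT+ and tdTneg cells no gene of this list was called in either population. Without the library labelled as tdT+ CD49f+CD34+ replicate 2, 8 relatives rose and 2 fell between the populations, no cofactor rose and 1 fell, 1 target rose and 3 fell, and 9 differentiation factors rose and none fell. Suprabasal markers (2715 to 9287 against 207 to 3488 CPM) and T cell markers (182 to 1163 against 26.8 to 111 CPM) moved with the population in these lists too, as did endothelial markers in the tdTneg CD49f+CD34+SCA-1+ libraries (3808 to 4005 CPM), and their part in the calls of the lists was not tested.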

How the data were processed

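The sources are 11 tables of whole-number counts per Ensembl gene, deposited by the authors. According to the study and the labels, TruSeq v2 libraries were sequenced on an Illumina HiSeq, demultiplexed with bcl2fastq 2.20.0.422, aligned to mm10 (Ensembl release 96) with STAR and counted with featureCounts, and DESeq2 1.18.1 was the authors' test. A strand setting is not given in the sources used here. The row outside the Ensembl genes was left out of library sizes and tests.

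Counts were filtered (filterByExpr, 20307 genes kept, all 10 members among them) and normalized with TMM. They were tested with edgeR 4.0.16 (R 4.3.3) in a quasi-likelihood fit of all 11 libraries with 1 mean per group. The code was run on counts simulated from the spread of that same fit. Those counts held no shared library or composition effects, so that the run does not test the assumptions of the fit. The p-values were adjusted by the Benjamini-Hochberg method over all genes tested. Called means an adjusted p under 0.05 with a log2 fold change beyond 1 either way. Normalized CPM use TMM library sizes, and log2 CPM a prior count of 2. The median half-width of the 95% intervals over all genes was 0.71 (log2) for the mean over tdT and 0.94 to 1.06 within classes. For the replicate block and the same-numbered pairs, libraries of the same number were taken as 1 pool of mice. The study counts 3 biological replicates of 2 mice each over all sorts, and the labelled ages match. The sources do not say outright that the sorts shared mice. The main fit had no block and treated the 11 libraries as independent. Deviations from the group means correlated with a median of 0.08 over 15 same-numbered pairs of libraries (-0.42 to 0.59) and -0.02 over 30 others (-0.60 to 0.51). Members and lists were chosen with earlier results of these data known. All members are named. Of each list of relatives, cofactors, targets and differentiation factors the called genes that rose and fell most and the 2 with the highest mean level are named, and Fgf18, Bmp6, Inhbb and Gm entries were named after their values were seen. Alternatives were DESeq2 1.42.0, limma voom (3.58.1) with library weights, RLE size factors, other filters, the replicate block, only the groups compared, no fold threshold, and leaving out each library. Counts over the lists, of factors at an unadjusted p or without overlap, and of pairs without the library labelled as tdT+ CD49f+CD34+ replicate 2 were added after seeing the data.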

Additional observations from a re-analysis of the deposited data

Results flagged for a closer look

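The effect of tdT on Tcf7l1 differed between the populations. The interaction term gave a log2 difference of -2.94 (SE 0.36, adjusted p = 0.00988, edgeR), with tdT+ against tdTneg at -0.60 without SCA-1 and -3.54 with it. It read -2.69 (adjusted p = 0.068) without tdTneg CD49f+CD34+SCA-1+ replicate 2. It read -3.16 (adjusted p = 0.00466) without the library labelled as tdT+ CD49f+CD34+ replicate 2. The group that stood apart was tdT+ CD49f+CD34+SCA-1+ (3.04 to 3.51 CPM), whose endothelial markers summed to 50.6 to 133 CPM. In tdTneg CD49f+CD34+SCA-1+ they summed to 3808 to 4005 CPM, while Tcf7l1 (31.5 and 44.8 CPM) overlapped with tdT+ CD49f+CD34+ (25 to 47.4 CPM). The part of these markers was not tested.

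A row outside the Ensembl genes, used in no comparison, had a median of 252 CPM over 5 tdT+ libraries, against 2.54 to 4.89 CPM in the 5 tdTneg libraries and 2.05 CPM in the remaining tdT+ library, labelled as CD49f+CD34+ replicate 2.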

How the results depend on the processing

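Other settings gave 1120 values of single factors. Many come from fits that left out a library outside the comparison, or from factors not called in the main fit. The share that kept its place is therefore no measure of how stable the calls were. Of the 1120, 1042 kept their direction and their side of the threshold, 38 were no longer called, 30 were newly called and 10 changed sign. None of the 10 was called in either fit. When each library was left out in turn these values ran from -0.45 to 0.42 (Nfatc1), -0.38 to 0.32 (Foxc1) and -0.49 to 0.39 (Runx1). Those that changed sign were the tdT difference in CD49f+CD34+ cells for Nfatc1 and Foxc1 with voom (-0.38 and -0.34) and without tdT+ CD49f+CD34+ replicate 3 (-0.45 and -0.38), and for Foxc1 without tdTneg CD49f+CD34+ replicate 2 (-0.05), and the interaction for Runx1 with voom (0.21) and in 4 fits that each lacked a library (0.00 to 0.39). The number of factors called was 5 to 9 between the populations on the mean over tdT, 6 to 9 within tdT+, 0 to 3 within tdTneg, 2 to 3 between tdT+ and tdTneg in CD49f+CD34+SCA-1+, 0 to 1 for the interaction and 0 in CD49f+CD34+ when each library was left out in turn (0 within tdTneg when tdTneg CD49f+CD34+SCA-1+ replicate 1 or tdTneg CD49f+CD34+ replicate 1 or 3 was absent, 5 on the mean when tdT+ CD49f+CD34+SCA-1+ replicate 2 was). Within tdTneg it was 4 with genes of at least 1 count in any library, 5 with voom and 1 with the groups compared alone. Between tdT+ and tdTneg in CD49f+CD34+SCA-1+ it was 6 with DESeq2 and 6 with the looser filter, and for the interaction 3, 3, 2 and 2 with DESeq2, the looser filter, at least 10 counts in every library, and voom. The cause was not tested. Without the fold threshold all 10 were called on the mean and within tdT+. The replicate block gave 6, 8, 2, 0, 4 and 1 (mean, within tdT+, within tdTneg, tdT in CD49f+CD34+, tdT in CD49f+CD34+SCA-1+, interaction) and changed no other call of a factor. Calls over all genes moved as well: within tdTneg 963 of 20307 with edgeR became 2710 with voom, 1410 of 41302 with the looser filter and 1452 of 19068 with the groups compared alone, tdT in CD49f+CD34+SCA-1+ went from 470 to 1124 with DESeq2 and 885 with the looser filter, tdT in CD49f+CD34+ from 2 to 332 with DESeq2, and the interaction from 79 to 772 with DESeq2, 568 with the looser filter, 263 of 12633 with at least 10 counts in every library and 646 with voom. RLE size factors moved the median of all genes by up to -0.116 (interaction) and the median of the factors from -1.15 to -1.26 there. CPM without TMM moved none of 40 group means by more than its SD. The group of 2 libraries and the lowest counts, 58 to 114 for Tcf7l1, limit the precision.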
